A study of Mus musculus with 12 samples.

Results

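The genes described here encode the proteins of the cytosolic ribosome. They were chosen by a rule on name and annotation, with earlier results of these data known. It takes protein-coding genes whose symbol is Rpl or Rps followed by a number and at most a final a or x. Rplp0, Rplp1, Rplp2 and Rpsa are taken as well. The rule found 76 genes among the 22046 protein-coding genes and 54532 genes in all that were measured, 46 for the large and 30 for the small subunit. It leaves out, among others, Rps3a1, Fau and Rack1, which also encode ribosomal proteins but are spelled otherwise. All 76 passed the filter on low values in every comparison below, so the counts cover every member.

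The tissue was mouse limb buds at E12.5, with limb bud cells as the labelled cell type. The mutant limb buds were Mettl14 flox/flox and are labelled Mettl14 knockout (cKO). The control limb buds were Mettl14 wt/flox and are labelled hetero (cHet), so they carried a floxed allele too. The sources used here give neither the Cre driver, and with it the cells that lost the allele, nor whether embryos were pooled. METTL14 works with METTL3 to place N6-methyladenosine on RNA. From each genotype, RNA was sequenced from polysomes isolated on a sucrose gradient and from the cytoplasmic fraction loaded on it, called input, with 3 biological replicates in each of the 4 groups.

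Each ribosome carries a single copy of most of these proteins, and cells make them in matched amounts. Their mRNAs are short, among the most abundant in a growing tissue, and begin with a run of pyrimidines, the terminal oligopyrimidine tract or TOP. Through that tract the kinase mTOR and the RNA-binding protein Larp1 move them between translating polysomes and a stored, ribosome-free pool. In mice and humans, losing a copy of some of these genes harms particular tissues, the skeleton and the red cell lineage among them.

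The libraries held 10349912 to 30068823 assigned reads, of which 580060 to 2204347 fell on the 76 genes. All 14 limb mesenchyme markers examined were detected, with summed levels of 1660 to 2359 FPKM in cKO polysomes, 1708 to 1907 FPKM in cHet polysomes, 1298 to 1551 FPKM in cKO input and 957 to 1142 FPKM in cHet input. Levels are given as FPKM, fragments scaled by gene model length and by a total for the library, and differences as log2(FPKM + 0.1). The assigned reads were 94.9% to 101.6% of the total that this scale implies, so the scale differs somewhat from the assigned reads. Mettl14 stood at 2.73, 2.81 and 3.29 FPKM in cKO polysomes, against 2.83, 3.07 and 3.02 FPKM in cHet polysomes. In input it stood at 2.60, 3.32 and 1.26 FPKM in cKO, against 4.09, 4.03 and 4.04 FPKM in cHet. The genotypes did not overlap in input, but the difference there (log2 −0.83 ± 0.32 SE, limma adjusted p = 0.295) did not pass an adjusted p of 0.05, the threshold for a call throughout. Which exons were deleted is not stated in the labels, so these values over the whole gene do not measure the deletion. The third cKO input library and the first cKO polysome library stood apart from their groups over all genes. On the second principal component cKO input replicate 3 lay at −63.0, against 0.493 and 10.2 for the other cKO input libraries. On the first, cKO polysome replicate 1 lay at 3.97, against 35.5 and 45.0 for the other cKO polysome libraries. The members' medians and call counts are also given without one or both of them. Shares, counts of groups that do not overlap, other gene lists and most values of single genes are given with all libraries only. The lowest Mettl14 value in input, 1.26 FPKM, was that of cKO input replicate 3.

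The 76 genes took a smaller share of polysome RNA than of input RNA. They held 8.0%, 8.77% and 9.35% of the protein-coding FPKM outside the mitochondrial genome in cKO polysomes and 10.4%, 10.1% and 9.05% in cHet polysomes. In input they held 16.2%, 14.7% and 17.4% in cKO and 14.9%, 15.6% and 13.7% in cHet. No polysome library reached the lowest input library. Set against the input of the same lysate, the polysome share was 0.495, 0.596 and 0.539 of the input share in the cKO lysates, and 0.698, 0.651 and 0.658 in the cHet lysates. All 3 cKO ratios lay below all 3 cHet ratios. As a share of reads, which does not correct for length, the genes held 4.94% ± 0.593 in cKO polysomes, 5.71% ± 0.381 in cHet polysomes, 8.59% ± 0.941 in cKO input and 7.80% ± 0.381 in cHet input (SD, n = 3 each).

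**Figure D1:**
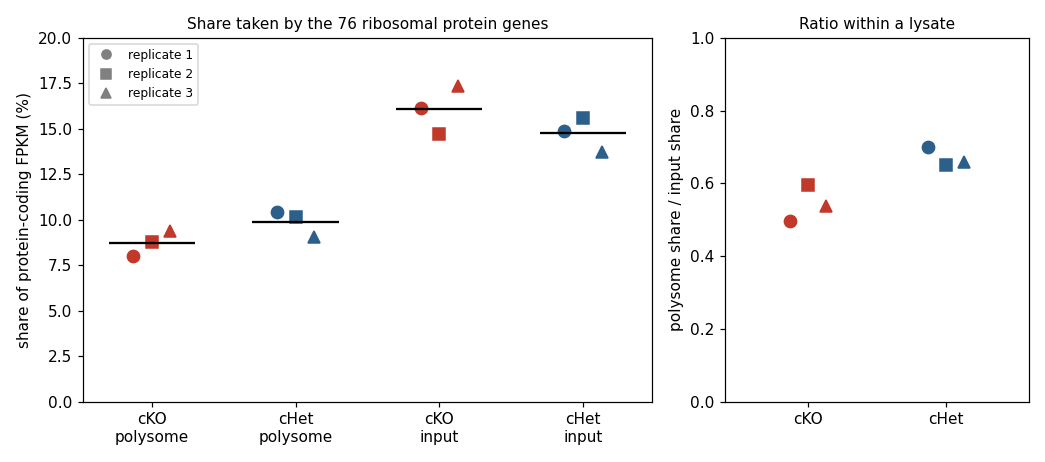
Left, share of protein-coding FPKM (%) taken by the 76 ribosomal protein genes in each library, with the group mean as a line. Right, polysome share divided by the input share of the same lysate; the cKO lysates lie at 0.495 to 0.596 and the cHet lysates at 0.651 to 0.698.

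Abundance differed widely among the members. The median member averaged 403 FPKM over the 12 libraries, 39 of the 76 were among the 100 most abundant nuclear protein-coding genes and 67 among the top 300. The highest were Rplp1 (2344 FPKM) and Rplp0 (1400 FPKM) of the stalk that recruits elongation factors, Rps15 (1592 FPKM) near the decoding site, Rpl41 (1279 FPKM), which encodes a peptide of 25 amino acids, and Rpl8 (1181 FPKM) near the peptidyl transferase centre. FPKM divides by the length of the whole gene model, which was 1.00 to 7.18 times (median 2.29) the length of the gene's principal mRNA in GENCODE M21, so levels of different members are only roughly comparable. Only 6 members averaged below 100 FPKM. Rps10, of the small subunit beak, stood at 1.09 FPKM, Rpl34 at 5.67, Rpl24 at 17.2, Rpl13a at 43.7, Rpl21 at 47.2 and Rpl35a at 87.0 FPKM.

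For Rps10 and Rpl34, the lowest members, most reads were counted on near-identical copies. Rps10-ps2, a processed copy annotated as a pseudogene, averaged 322 FPKM, and 98.6% of all reads on Rps10 and its 4 named copies fell on the copies. For Rpl34 the share on copies was 97.0%, with Rpl34-ps1 at 1360 FPKM, for Rpl17 it was 67.0% and for Rpl21 40.5%. Rps2 had 41.3% on copies, Rps12 33.3% and Rpl3 22.9%. Of the 76 genes, 59 have named pseudogenes, 295 in all. Together these copies held 6.0% of the reads on members and copies, and for 15 members they held more than 10%. Rpl24 has no named copy and Rpl13a a single one with 0.0118% of the reads, but both overlap another gene model on the same strand, Gm28037 and Gm45713, which are listed at 0. The labels do not say how reads that fit several places were counted. The levels of Rps10, Rpl34, Rpl17, Rps2, Rpl21, Rps12, Rpl3, Rpl24 and Rpl13a are therefore uncertain.

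The start regions of members at both ends of the polysome ranking show how the annotated starts relate to the TOP tract. RefSeq promoter windows on GRCm38.p6 were matched by symbol to 56 of the 76 genes, with 66 starts. A run of at least 8 pyrimidines (C or T, sense strand) touched the 20 bases on either side of the start in 48.5% of these, against 20.98% of the 32851 starts of all genes. The letters CCGGAAG, which hold the core that ETS factors bind, occurred on either strand of the 300-base windows in 36.4% of member starts and 8.86% of all starts. AAGATGGC, a form of the YY1 site, occurred in 10.6% and 2.75%. A match describes the letters only. Below are 40 bases before and 25 after the annotated start, in lower case, with capitals for the longest pyrimidine run that touches the 20 bases on either side of the start. First come the 4 members lowest on polysomes relative to input in cHet: Rplp0 (chr5:115559427-115559491, plus strand), Rpsa (chr9:120127726-120127790, plus), Rps12 (chr10:23787185-23787249, minus) and Rps4x (chrX:102189367-102189431, minus). Then come the 3 highest: Rpl27 (chr11:101442205-101442269, plus), Rpl34, which has 2 starts (chr3:130730374-130730438 and, downstream, chr3:130730313-130730377, minus), and Rpl38 (chr11:114668540-114668604, plus).
Rplp0: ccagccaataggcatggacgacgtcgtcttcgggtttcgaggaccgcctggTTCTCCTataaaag
Rpsa: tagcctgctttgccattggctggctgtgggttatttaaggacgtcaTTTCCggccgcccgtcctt
Rps12: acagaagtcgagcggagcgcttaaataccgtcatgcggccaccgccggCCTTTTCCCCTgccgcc
Rps4x: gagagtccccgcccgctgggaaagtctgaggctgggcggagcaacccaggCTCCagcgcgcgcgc
Rpl27: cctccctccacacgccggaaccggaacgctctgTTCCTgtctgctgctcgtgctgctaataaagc
Rpl34, upstream start: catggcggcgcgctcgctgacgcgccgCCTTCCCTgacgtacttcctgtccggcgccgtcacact
Rpl34, downstream start: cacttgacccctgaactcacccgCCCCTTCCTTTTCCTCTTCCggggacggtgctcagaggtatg
Rpl38: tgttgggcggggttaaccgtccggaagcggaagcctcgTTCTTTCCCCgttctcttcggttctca
Long runs stood at both ends: 11 pyrimidines in Rps12 at the low end, and 10 in Rpl38 and 8 and 20 at the starts of Rpl34 at the high end. Under the same limit Rpsa and Rpl27 each have a run of 5. Among members whose longest run reached 8, the median polysome-minus-input log2 was −0.68 in cKO and −0.19 in cHet (30 genes). Among those with shorter runs it was −0.75 in cKO and −0.34 in cHet (26 genes). RefSeq starts need not be the starts used in these limb buds.

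Within each genotype the polysome and input libraries were then compared, which asks how much of an mRNA sits on polysomes relative to other mRNAs. Most ribosomal protein mRNAs were lower on polysomes than in input. In cKO, 55 of the 76 were called lower and none higher, where 15.6% of the 13610 genes tested were called lower and 16.9% higher. In cHet, 28 were called lower and 4 higher, where 25.9% of genes were called lower and 27.3% higher. The median log2 over the members was −0.68 in cKO and −0.33 in cHet, beside 0.06 and 0.02 over all tested genes. The 28 members called lower in cHet were all among the 55 called lower in cKO. All 6 lysates were below 0 for 49 members and above 0 for 2, Rpl27 and Rpl34. With each library scaled to its protein-coding FPKM, the median of all genes was −0.06 in cKO and −0.20 in cHet. With that scaling, 67 members were called lower and none higher in cKO, and 51 lower and 3 higher in cHet, out of 2672 genes lower and 1684 higher in cKO and 4534 lower and 2479 higher in cHet. With each genotype fitted alone on its own 6 libraries, 22 members were called lower and none higher in cKO. Over all 12943 genes that fit called 474 lower and 460 higher. In cHet it called 41 members lower and 7 higher, out of 4805 genes lower and 4904 higher of 13097. The order of the counts between the genotypes thus depends on the fit, and calls over all genes moved with it. Without both libraries that stood apart, 46 members were called lower and 3 higher in cKO, and 38 lower and 7 higher in cHet. Of the 13472 genes tested there, 4038 were called lower and 3974 higher in cKO, and 4814 lower and 4844 higher in cHet.

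**Figure D2:**
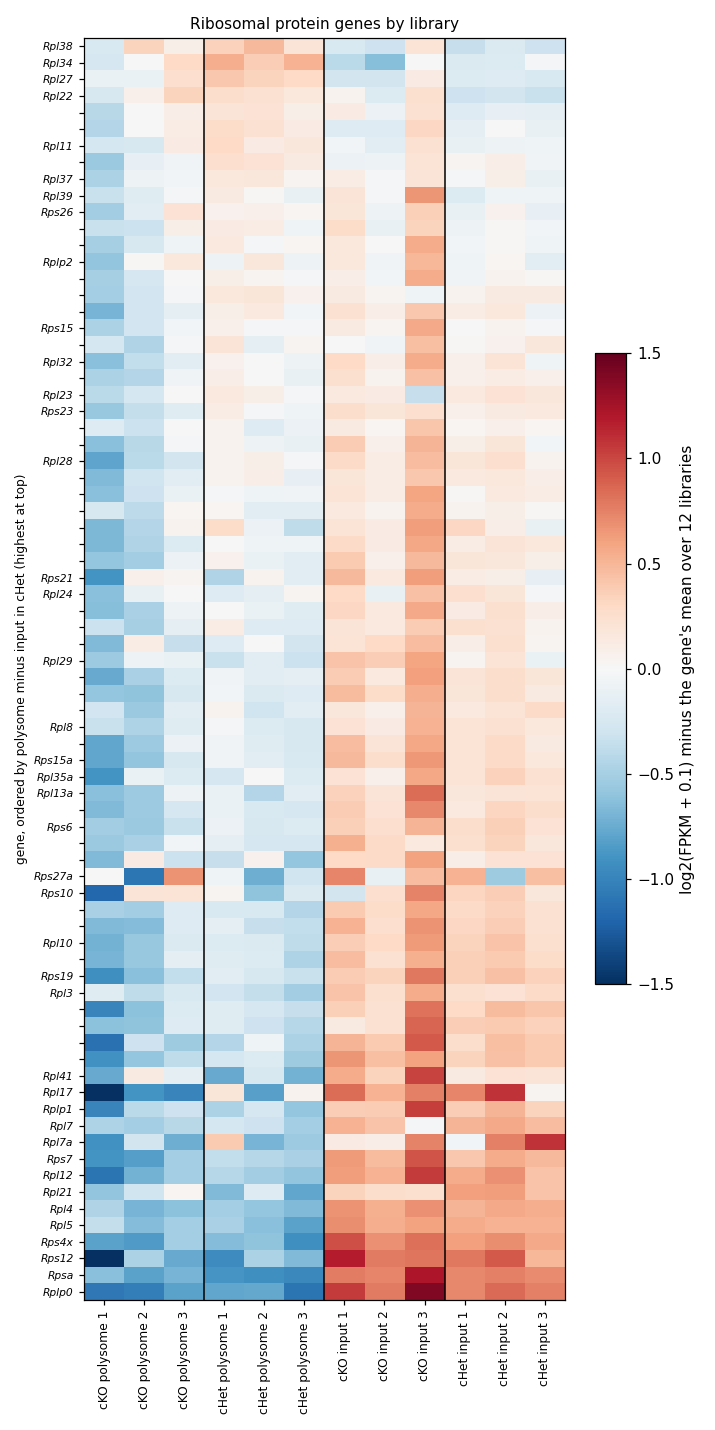
log2(FPKM + 0.1) of each of the 76 genes in the 12 libraries, minus the gene's own mean, with genes ordered by polysome minus input in cHet and the highest on top, and names given for genes described in the text. The input columns are redder than the polysome columns for most genes, and Rpl38, Rpl34, Rpl27 and Rpl22 at the top run the other way in cHet.

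The stalk of the large subunit, where elongation factors dock, held the lowest member. Rplp0 (chr5:115559467-115563727, plus strand), the scaffold of the stalk, stood at 542, 556 and 653 FPKM in cKO polysomes, against 2366, 1963 and 2990 FPKM in cKO input. In cHet it stood at 665, 673 and 534 FPKM in polysomes, against 1883, 2054 and 1922 FPKM in input. Its log2 difference was −2.05 ± 0.16 in cKO (SE, adjusted p = 2.53e-05) and −1.65 ± 0.16 in cHet (adjusted p = 8.61e-05). Rpl12, which lies at the stalk base, fell by 1.5 in cKO and 1.08 in cHet, and Rplp1 fell by 1.17 and 0.84. Rplp2, which pairs with Rplp1 in the stalk, was not called, with −0.34 in cKO and 0.07 in cHet.

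Among small subunit members, those lowest on polysomes were Rps12, Rpsa and Rps4x. Rpsa (chr9:120127689-120132369, plus strand), which sits by the mRNA exit and was also described as a laminin receptor, stood at 292, 257 and 278 FPKM in cKO polysomes, against 768, 745 and 1045 FPKM in cKO input. In cHet it stood at 245, 237 and 231 FPKM in polysomes, against 740, 757 and 736 FPKM in input. It fell by 1.61 in cKO (adjusted p = 4.61e-05) and by 1.65 in cHet (adjusted p = 4.13e-05), nearly the same size in both. Rps12, a beak protein, fell by 1.89 in cKO and 1.43 in cHet, but its cKO polysome values of 59.5, 135 and 112 FPKM spread more than most. Its copy Rps12-ps3, which averaged 415 FPKM, gave −1.88 in cKO and −1.64 in cHet. Rps4x, the X-linked copy of Rps4, fell by 1.55 and 1.35. Rps7 (chr12:28630854-28635953, minus strand), mutated in a mouse line with skeletal defects, stood at 211, 223 and 277 FPKM in cKO polysomes, against 613, 549 and 756 FPKM in cKO input, and at 305, 293 and 282 FPKM in cHet polysomes, against 521, 581 and 553 FPKM in cHet input. It fell by 1.43 in cKO (adjusted p = 1.75e-04) and by 0.91 in cHet (adjusted p = 4.99e-04). No small subunit member was called higher in either genotype, and 24 of 30 were called lower in cKO and 11 of 30 in cHet. Over all genes 15.6% were called lower and 16.9% higher in cKO, and 25.9% lower and 27.3% higher in cHet.

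Rpl5 and Rpl11 form a particle with 5S ribosomal RNA and, when not assembled, bind the p53 regulator Mdm2, yet their mRNAs stood far apart. Rpl5 (chr5:107900502-107909005, plus strand) had 181, 149 and 163 FPKM in cKO polysomes, against 376, 338 and 353 FPKM in cKO input. In cHet it had 166, 150 and 133 FPKM in polysomes, against 341, 334 and 335 FPKM in input. It fell by 1.12 in cKO (adjusted p = 2.91e-04) and by 1.17 in cHet (adjusted p = 9.72e-05). Rpl11 (chr4:136028265-136053428, minus strand) had 343, 347 and 448 FPKM in cKO polysomes, against 399, 369 and 481 FPKM in cKO input. In cHet it had 506, 449 and 462 FPKM in polysomes, against 379, 391 and 393 FPKM in input. Its log2 was −0.14 in cKO (adjusted p = 0.492) and 0.28 in cHet (adjusted p = 0.113), neither called. In cHet the polysome values of Rpl11 lay above all input values, and those of Rpl5 far below them.

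The proteins around the peptidyl transferase centre, Rpl3, Rpl4, Rpl8 and Rpl10, were called lower in both genotypes. Their log2 values ran from −1.22 (Rpl4) to −0.61 (Rpl8) in cKO and from −1.13 (Rpl4) to −0.35 (Rpl8) in cHet. Rpl10, among the last proteins to join the large subunit, stood at −0.94 in cKO and −0.60 in cHet. Of 8 genes for proteins at the peptide exit site, 6 were called lower and none higher in cKO, and 2 lower and 1 higher (Rpl22) in cHet. Rpl39, which lines the exit tunnel and is X-linked, was not called, with −0.45 in cKO and 0.13 in cHet. Of 8 genes along the mRNA path of the small subunit, 6 were called lower in cKO and 2 in cHet. Over all genes 15.6% were called lower in cKO and 25.9% in cHet, so the cHet count of 2 in 8 in each of these groups is near the background. Rps26, whose protein touches mRNA upstream of the start codon, was among those not called (−0.31 in cKO, 0.12 in cHet).

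Rpl38 stood at the opposite end from Rplp0. Its loss in the mouse Tail short mutant alters skeletal patterning. Rpl38 (chr11:114668524-114672331, plus strand) had 289, 425 and 359 FPKM in cKO polysomes, against 289, 272 and 391 FPKM in cKO input, which overlap. In cHet it had 429, 475 and 388 FPKM in polysomes, against 265, 290 and 274 FPKM in input, which do not. It was higher on cHet polysomes by 0.64 ± 0.17 (SE, adjusted p = 0.00897), against 0.17 in cKO (adjusted p = 0.467). In cKO the value of Rpl38 was 0.48 without both libraries that stood apart (adjusted p = 0.00728) and 0.55 with library quality weights (adjusted p = 4.11e-04), both called. Rpl27, Rpl34 and Rpl22 were the other members called higher on cHet polysomes, with log2 0.55, 0.63 and 0.53 there and 0.16, 0.36 and 0.03, none called, in cKO. With quality weights these 3 were called in cKO as well, with Rpl27 at 0.24 (adjusted p = 0.0306), Rpl34 at 0.64 (adjusted p = 2.21e-04) and Rpl22 at 0.28 (adjusted p = 0.0192). Without both libraries that stood apart, Rpl27 was called in cKO at 0.35 (adjusted p = 0.0255) and Rpl34 at 0.67 (adjusted p = 0.00156). Rpl34 was also called there without cKO input replicate 3 (0.53, adjusted p = 0.0188) or without cKO polysome replicate 1 (0.50, adjusted p = 0.0435), and quantile normalization called Rpl27 (0.34, adjusted p = 0.0311). For Rpl34 these values rest on the few reads kept on the gene itself, since with reads of its named copies added it was 0.07 in cHet (adjusted p = 0.757) and −0.43 in cKO. The call for Rpl22 in cHet was lost without cHet polysome replicate 1 (log2 0.50, adjusted p = 0.053) and with protein-coding scaling (log2 0.30, adjusted p = 0.0579). After removal of the trend with gene length the values of Rpl38 and Rpl27 in cHet were 0.28 and 0.20, not called.

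Of the other genes tied to skeletal or red cell phenotypes, Rps6, the target of S6 kinase, fell by 0.84 in cKO and by 0.46 in cHet. Rps19, the gene most often mutated in human Diamond-Blackfan anaemia, fell by 1.14 and 0.63. Rpl24, mutated in the mouse Belly spot and tail, was not called (−0.45 and −0.23). Among 18 genes mutated in Diamond-Blackfan anaemia in humans, 12 were called lower and none higher in cKO, and 5 lower and 1 higher (Rpl27) in cHet, where 15.6% of all genes were called lower in cKO and 25.9% in cHet, so the cHet count is near the background.

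**Figure D3:**
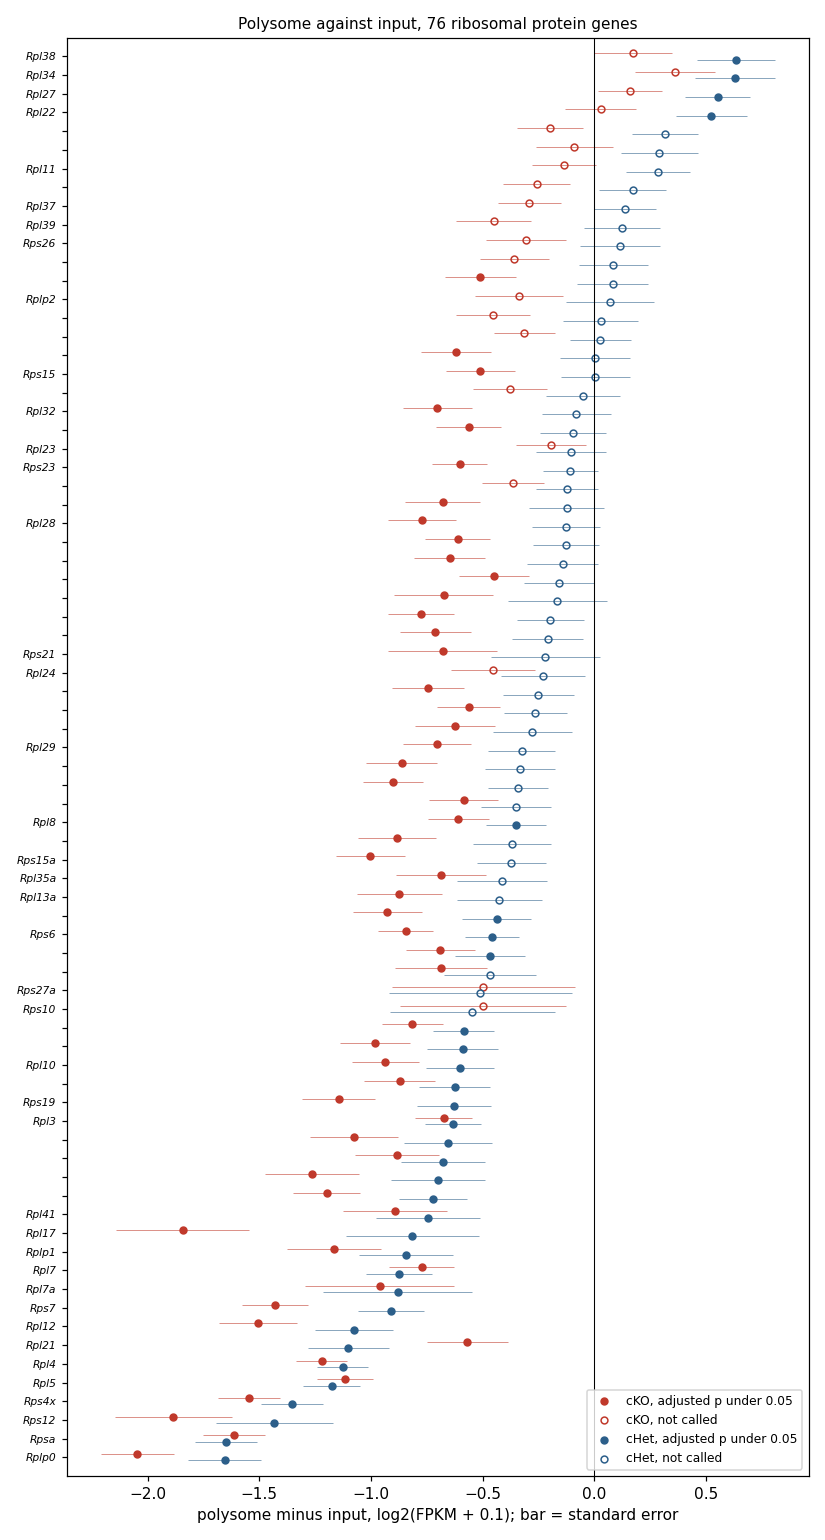
Polysome minus input log2(FPKM + 0.1) of the 76 genes in cKO (red, upper of each pair) and cHet (blue, lower), with standard errors from the fit; filled points had an adjusted p under 0.05, and names are given for genes described in the text. The order runs from Rplp0 at the bottom (−2.05 in cKO, −1.65 in cHet) to Rpl38 at the top (0.17 in cKO, 0.64 in cHet).

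The order of the members was much alike in the genotypes. Across the 76 genes the cKO and cHet log2 values, which come from different libraries, correlated at Pearson r = 0.89 and Spearman rho = 0.87, a description across genes that share libraries, protein class and length. Longer proteins tended to lower values, with Spearman rho between protein length and polysome-minus-input log2 of −0.39 in cKO and −0.49 in cHet across the same genes. The mRNAs of other short proteins stood elsewhere. The median member encodes 151.5 amino acids and the median of 11880 tested protein-coding genes 448. Between 100 and 150 amino acids, the 27 members had a median log2 of −0.61 in cKO, against 0.76 for 612 other protein-coding genes of that length. In cHet the values were −0.11 for the members and 0.94 for the others. In that class 24 of the 27 members were below 0 in cKO and 16 in cHet, against 7.68% and 5.56% of the others. Between 200 and 300 amino acids, the 18 members had medians of −0.87 in cKO and −0.52 in cHet, against 0.36 and 0.49 for 1681 other genes. The members thus lay below genes of like protein length in every class that holds members, and these medians are descriptions without a test.

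**Figure D4:**
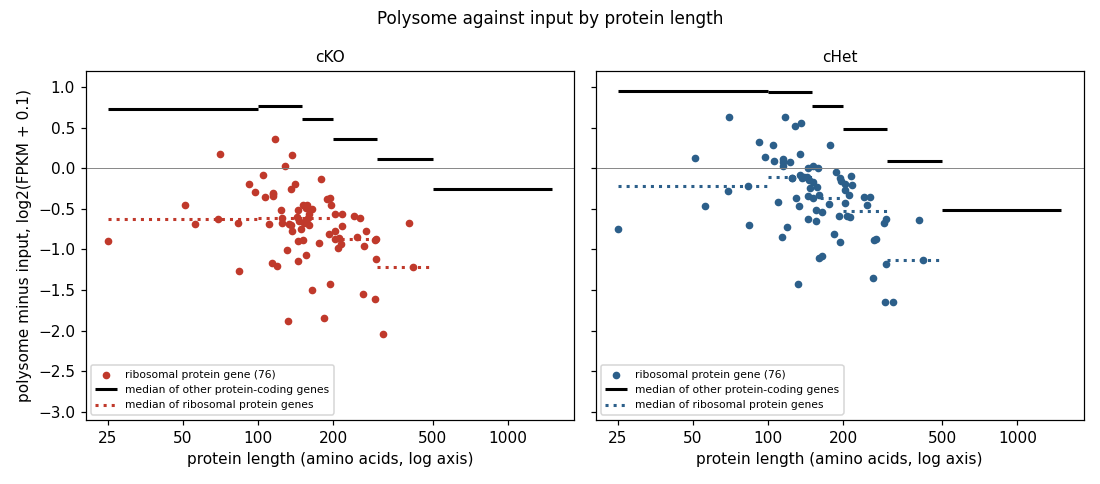
Polysome minus input log2(FPKM + 0.1) against protein length (amino acids, log axis) in cKO (left) and cHet (right). Points are the 76 genes, dotted lines their medians in length classes and black lines the medians of other protein-coding genes; between 100 and 150 amino acids these are −0.61 and 0.76 in cKO and −0.11 and 0.94 in cHet.

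Of 13 ribosomal proteins and paralogs outside the naming rule, 10 were tested, of which 5 were called lower and none higher in cKO, and 3 lower and 1 higher in cHet. For this and the following lists, the shares over all genes were 15.6% lower and 16.9% higher in cKO, and 25.9% and 27.3% in cHet. Rack1, a scaffold protein on the small subunit head, fell by 1.41 in cKO and 1.10 in cHet, and Rps3a1 fell by 0.82 and 0.54. Fau, made as a fusion with a ubiquitin-like protein, fell by 0.46 in cKO and was not called in cHet (0.08). The gene called higher was Rpl39l, a paralog of Rpl39 named here after its value was seen, at 1.21 in cHet (adjusted p = 0.00545) and 0.43 in cKO (adjusted p = 0.287), both above the highest member. Its level was near the filter, at 4.07, 3.36 and 2.40 FPKM in cHet polysomes and 1.58, 1.75 and 0.84 FPKM in cHet input. The genes for mitochondrial ribosomal proteins stood on the other side: of 77 tested, 51 were called higher on polysomes and none lower in cKO (median 0.59), and 53 higher and 4 lower in cHet (median 0.77). Of 35 ribosome biogenesis factors, 10 were called lower and 5 higher in cKO (median −0.10), and 20 lower and 4 higher in cHet (median −0.73). Nolc1, a nucleolar chaperone, fell by 0.88 in cKO and 1.62 in cHet, while Nop10, a short protein of snoRNA particles, rose by 1.33 and 1.6. Of 7 tested genes for chaperones and escorts of ribosomal proteins, none was called lower and 2 higher in cKO, and 3 lower and 2 higher in cHet. Bccip, which escorts a large subunit protein, rose by 1.23 and 1.38. Of 19 tested genes of the mTOR, S6 kinase and TOP-binding machinery, 6 were called lower and 2 higher in cKO, and 7 lower and 5 higher in cHet. Cnbp, a protein that binds TOP mRNAs, rose by 0.71 in cKO and 0.84 in cHet, and Mtor fell by 0.70 and 0.80. Several of these counts are near the shares over all genes. Among them are 3 of 10 lower in cHet outside the naming rule, 5 of 35 biogenesis factors higher in cKO and 5 of 19 mTOR genes higher in cHet.

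On polysomes, cKO was then compared with cHet, which asks whether polysome-bound RNA differs between the genotypes. No member was called, and no gene of 12877 (0.0%) was called by limma. At an unadjusted p under 0.05 there were 7 members and 2743 genes, and voom weights on the recovered reads gave no call either. Genes other than members were called without cKO polysome replicate 1 (100 higher and 60 lower), without cKO polysome replicate 2 (121 and 110) and with all 12 libraries in the fit (146 and 38). The values leaned to one side: 66 of the 76 were lower in cKO, with a median log2 of −0.27, where 47.1% of all tested genes were lower and the median was 0.02. Every cKO library lay below every cHet library for 24 members, 31.6%, where 13.5% of tested genes did so. Every cKO library lay above for 1, Rpsa, where 17.9% of genes did so. These members share their libraries, so their number is not a number of separate observations.

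Among the 24 were Rpl28 and Rps23. Rpl28, a large subunit protein, had 273, 359 and 393 FPKM in cKO polysomes, against 493, 503 and 465 FPKM in cHet polysomes (log2 −0.53 ± 0.18 SE, adjusted p = 0.168). Rpl17 had the lowest log2, −0.94 ± 0.29 (adjusted p = 0.145), with 96.7, 150 and 141 FPKM in cKO and 315, 158 and 289 FPKM in cHet. With reads of its named copies added it stood at −0.36 (adjusted p = 0.279), and its polysome-minus-input log2 at −1.42 in cKO and −0.96 in cHet, against −1.84 and −0.81 without them. At the other end Rpl41 stood at 0.31, Rpl21 at 0.26 (0.0013 with reads of its named copies added) and Rps27a at 0.23, none called, and their groups overlapped. Rpsa had 292, 257 and 278 FPKM in cKO, against 245, 237 and 231 FPKM in cHet (log2 0.21, adjusted p = 0.414).

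Single libraries weighed on this median. Relative to their own group, the members' median deviation was −0.24, −0.01 and 0.23 in cKO polysome replicates 1 to 3 and 0.07, 0.00 and −0.08 in cHet. Without cKO polysome replicate 1 the median was −0.15, with 59 members lower. Under quantile normalization it was −0.15 as well. With weights for library quality, 24 members were called lower and 1 higher, out of 1177 genes lower and 1444 higher. Markers of the epidermis moved with the genotype on polysomes: 14 of 15 were higher in cKO, none called, and their summed level was 277 to 533 FPKM in cKO polysomes and 215 to 223 FPKM in cHet polysomes, with the highest sum in cKO replicate 1. None of the 15 was at 0 throughout a group. The 11 macrophage markers summed to 60.4 to 87.6 FPKM in cKO and 44.4 to 49.7 FPKM in cHet. The 11 tested erythroid markers were all lower in cKO, and their 13 listed genes summed to 10745 to 25955 FPKM in cKO and 16436 to 31509 FPKM in cHet. These sums overlapped: cKO replicate 1 was the lowest, cHet replicate 3 the highest, and cHet replicates 1 and 2 stood at 16436 and 18365 FPKM. The part of these cells in the members' values was not tested, and in bulk tissue fewer cells of a type and less RNA per cell cannot be told apart.

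In input RNA the members leaned the other way, and again none was called by limma. No gene of 12977 (0.0%) was called, 5 members and 1943 genes had an unadjusted p under 0.05, and voom gave no call. Genes other than members were called without cKO input replicate 3 (249 higher and 77 lower), without cKO input replicate 2 (39 and 8) and with all 12 libraries in the fit (76 and 6). In cKO 68 of the 76 were higher, with a median log2 of 0.17 beside −0.01 for all genes, of which 48.6% were higher. Every cKO library lay above every cHet library for 10 members, 13.2%, where 16.9% of genes did so, and below for Rpl23 and Rpl21. In either direction the groups did not overlap for 12 members, 15.8%, where 29.3% of genes did so, and both counts are under the background. The highest values were those of Rpl41 (0.46), Rpl29 (0.41), Rps21 (0.39) and Rpl39 (0.39), and the lowest those of Rpl21 (−0.28, and −0.18 with reads of its named copies added), Rpl7a (−0.27), Rpl7 (−0.20) and Rpl23 (−0.20). Rpl41 had 1761, 1514 and 2428 FPKM in cKO input, against 1315, 1392 and 1367 FPKM in cHet input (adjusted p = 0.305). Rpl29 had 474, 456 and 530 FPKM in cKO, against 364, 408 and 330 FPKM in cHet (adjusted p = 0.229).

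The library that stood apart was high for the members, whose median deviation from their group was −0.04, −0.19 and 0.21 in cKO input replicates 1 to 3 and −0.01, 0.06 and −0.03 in cHet. Rplp1 had 2812, 2830 and 4481 FPKM in cKO input, against 2820, 3101 and 2751 FPKM in cHet input, so that replicate 3 alone lay above the cHet range. Without cKO input replicate 3 the members' median was 0.06, with 56 of 76 higher. Without cKO input replicate 2 it was 0.26. With quality weights it was 0.006, with 2 members called lower and none higher, out of 361 genes lower and 723 higher. Cell type markers leaned with the genotype in input too, none called. Epidermis markers summed to 464 to 523 FPKM in cKO input and 397 to 404 FPKM in cHet input, with 13 of 15 higher in cKO. Macrophage markers summed to 51.7 to 74.0 FPKM in cKO and 40.4 to 45.8 FPKM in cHet, with all 8 tested higher, and 12 of the 14 limb mesenchyme markers were higher as well, with the sums given above. All 11 tested erythroid markers were lower in cKO, with sums of 5799 to 14337 FPKM in cKO and 9330 to 23972 FPKM in cHet. These sums overlapped too: cKO replicate 1 was again the lowest, cHet replicate 3 the highest, and cHet replicates 1 and 2 stood at 10821 and 9330 FPKM. No marker of these lists was at 0 throughout a group, and their part in the members' values was not tested.

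The last comparison was between the genotypes' polysome-to-input ratios, which asks whether an mRNA's place on polysomes relative to other mRNAs changed. FPKM are relative within a library, so the ratio does not measure the share of an mRNA's molecules on polysomes. No member passed by limma, nor did any of the 13610 genes (0.0%), although 24 of the 76 members and 638 genes had an unadjusted p under 0.05, and voom gave no call. The ratio was lower in cKO for 70 of the 76 genes, with a median log2 of −0.42, where 47.4% of all tested genes were lower and the median was 0.02. Taking each lysate on its own, every cKO ratio lay below every cHet ratio for 46 of the 76 members, where 9.72% of tested genes showed that order, and above for none. The 46 rest on the same 6 lysates. Several marker lists leaned the other way in this ratio, none called: 15 of 15 epidermis markers were higher in cKO (median 0.38), as were 11 of 12 tested cartilage markers (median 0.52) and 9 of 10 endothelium markers (median 0.16). Limb mesenchyme markers leaned the same way as the members, with 10 of 14 lower in cKO (median −0.23), none called. Cartilage markers summed to 45.3 to 101 FPKM in cKO polysomes and 43.1 to 55.0 FPKM in cHet polysomes, and to 109 to 126 FPKM in cKO input and 107 to 148 FPKM in cHet input. Endothelium markers summed to 55.1 to 85.1 FPKM in cKO polysomes and 63.6 to 71.4 FPKM in cHet polysomes, and to 66.2 to 97.0 FPKM in cKO input and 74.1 to 82.9 FPKM in cHet input. The part of all these markers in the members' ratios was not tested. The lowest values were those of Rpl17 (−1.03, adjusted p = 0.79), Rpl28 (−0.65), Rps15a (−0.63) and Rpl32 (−0.62), and the highest were those of Rpl21 (0.53), Rpl7 (0.10), Rpl5 (0.06) and Rps10 (0.05). With reads of named copies added, Rpl17 stood at −0.47, no longer the lowest, and Rpl21 at 0.18. Rpl32 had lysate log2 values of −0.93, −0.46 and −0.71 in cKO, against −0.01, −0.21 and −0.01 in cHet. Rpl28 had −1.08, −0.51 and −0.73 in cKO, against −0.13, −0.17 and −0.08 in cHet.

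**Figure D5:**
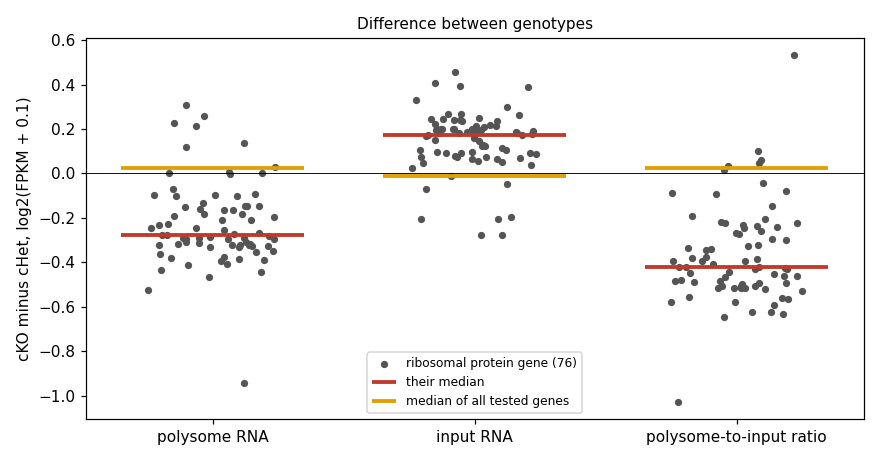
cKO minus cHet log2(FPKM + 0.1) of the 76 genes in polysome RNA, input RNA and as a difference of polysome-to-input ratios; each point is a gene, red lines are their medians (−0.27, 0.17 and −0.42) and yellow lines the medians of all tested genes (0.02, −0.01 and 0.02). The third column is made from the libraries of the first and second.

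By group, the medians of this difference were −0.39 for the large and −0.46 for the small subunit, −0.53 for the 8 peptide exit site genes and −0.40 for the 4 stalk genes. They were nearer 0 for the 4 genes around the peptidyl transferase centre, at −0.18. Other protein-coding genes of like length also lay below 0, with a median of −0.20 between 100 and 150 amino acids, where the 27 members had −0.48. Between 200 and 300 amino acids, it was −0.12 for other genes and −0.28 for members. Genes above 500 amino acids, among which there is no member, had a median of 0.21. Leaving out single libraries gave members' medians from −0.54 to −0.29. Without both libraries that stood apart it was −0.18, with 65 of the 76 lower.

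Related gene groups had no called gene between the genotypes in polysome RNA, in input RNA or in the ratio. Biogenesis factors ran opposite to the members. On polysomes 31 of 35 were higher in cKO (median 0.29), in input 26 were lower (median −0.22), and the ratio was higher for 32 (median 0.48). Rrs1, needed for the large subunit, had 41.8 ± 16.1 FPKM in cKO polysomes, against 16.1 ± 1.97 FPKM in cHet polysomes (SD, n = 3 each, log2 1.32, adjusted p = 0.0848). The separate list of ribosomal protein chaperones had no such lean, with 4 of 7 tested higher and 3 lower on cKO polysomes (median 0.08). Grwd1, a chaperone of Rpl3, had the highest log2 of that list. It had 27.2 ± 6.66 FPKM in cKO polysomes, against 13.9 ± 0.972 FPKM in cHet polysomes (log2 0.94, adjusted p = 0.085). Of 15 tested p53 targets, 8 were higher and 7 lower on cKO polysomes, and 12 were higher in cKO input, with Zmat3 at 0.41 (adjusted p = 0.263). Mitochondrial ribosomal protein genes had medians of 0.003 on polysomes, 0.10 in input and −0.16 in the ratio.

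A few members varied between libraries in ways that did not follow the genotype. The coefficient of variation within groups, averaged over the 4 groups, had a median of 11.3% over the members and reached 35.3% for Rps27a, which encodes a ribosomal protein fused to ubiquitin. Rps27a had 292, 137 and 465 FPKM in cKO polysomes and 279, 175 and 237 FPKM in cHet polysomes. In input it had 483, 269 and 402 FPKM in cKO and 419, 201 and 398 FPKM in cHet. Replicate 2 was the lowest of its group all 4 times. Rpl7a, an RNA-binding protein of the large subunit, varied without such an order: it had 83.4, 129 and 94.0 FPKM in cKO polysomes, 204, 96.7 and 107 FPKM in cHet polysomes, 171, 167 and 262 FPKM in cKO input and 151, 264 and 331 FPKM in cHet input.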

How the data were processed

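Per the submitters' processing notes, the authors used HISAT2 2.0.5, featureCounts 1.5.0-p3 and mm10, and per the labels' protocols total RNA was made into libraries with NEBNext Ultra II. They deposited FPKM per gene for 12 libraries (unused sample columns: 0). The sources used here do not give the handling of multi-mapped reads, strand or ribosomal RNA. FPKM times gene length came in whole steps (within 0.01) in every library, and those reads gave depth, shares and the voom alternative. Gene models were matched to GENCODE M21, whose lengths equalled the deposited ones for 72 of the 76 members.

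Differences were fitted with limma 3.58.1 (R 4.3.3) with an intensity trend on log2(FPKM + 0.1), which understates changes of low genes. Genes needed an FPKM of at least 1 in at least 3 fitted libraries, tests were two-sided, and Benjamini-Hochberg adjustment ran over all genes tested. The genotype comparisons used the 6 libraries of a fraction, and the polysome comparisons and their difference used all 12 with 4 group means. The scripts were tested on simulated data. The members, gene lists and marker lists were chosen with earlier results of these data known.

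Genes named are Mettl14, members fixed for their role, the 5 highest and lowest members by level, the 4 highest and lowest per comparison, called members where under 10 are called, members that stand out in a group, and up to 3 genes with the smallest p in each other list. Input and polysome libraries of the same number and genotype were read as the same lysate, since the design text has polysomes purified from the input fraction. Their deviations from group means correlated at 0.05, 0.23 and 0.10 in cKO and 0.15, 0.13 and 0.25 in cHet over 13610 genes. Alternatives covered pseudocount, filter, scaling, length trend, weights, voom, libraries left out and the replicate block. Values of some genes that these rules name are not reported here. Reads of named pseudogenes, and leaving out both libraries that stood apart, were added after seeing the data.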

Additional observations from a re-analysis of the deposited data

Results flagged for a closer look

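For 4 members the polysome-to-input log2 was below 0 in every cKO lysate and above 0 in every cHet lysate, and 3 of them are given here: Rps26, Rpl11 and Rpl37. The difference between the genotypes was −0.42 for Rps26, −0.42 for Rpl11 and −0.43 for Rpl37, and none passed limma (adjusted p = 0.79 for each). Rpl11 had −0.22, −0.09 and −0.10 in the cKO lysates, against 0.42, 0.20 and 0.23 in the cHet lysates. Rps26 had −0.70, −0.07 and −0.14 in cKO, against 0.18, 0.01 and 0.16 in cHet. Of the 13610 genes tested, 50 (0.367%) showed this order of signs, and no member showed the opposite one. The lysate with cKO polysome replicate 1 was the lowest for these 3, and its part in the differences was not tested.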

How the results depend on the processing

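In input RNA, quality weights gave 2 called members and a median of 0.0060, and leaving out single libraries gave medians from 0.06 to 0.26. On polysomes, quality weights gave 25 calls, and leaving out single libraries gave medians from −0.39 to −0.15 and no call. For polysome against input in cKO, members called lower numbered 22 with the cKO libraries fitted alone, 15 with a log2 of at least 1 and 47 to 57 without single libraries, beside 55 in the report. Over all genes, 474 were called lower with the cKO libraries fitted alone, beside 2118 in the report and 1252 to 2981 without single libraries. In either direction 880 genes passed with a log2 of at least 1. In cHet, calls in either direction numbered 32 in the report and 25 to 40 without single libraries. They numbered 54 (median −0.556) with protein-coding scaling, 50 (−0.453) with quantile normalization and 51 (−0.516) with the length trend removed. Quality weights gave 53, and a log2 of at least 1 gave 8. Over all 13610 genes, quality weights called 5500 lower and 5607 higher, and 2318 passed with a log2 of at least 1. The 53 and 8 members are under these shares. Protein-coding scaling called 4534 genes lower and 2479 higher, quantile normalization 3302 and 3827, and removal of the length trend 2980 and 3637. Without single libraries 2749 to 4424 genes were called lower and 2908 to 4390 higher. The genotype difference of the ratio had a median of −0.54 to −0.29 without single libraries, −0.183 with quantile normalization and −0.179 without both libraries that stood apart. As shares of reads the members held 4.94%, 5.71%, 8.59% and 7.80% in cKO polysomes, cHet polysomes, cKO input and cHet input. The cause of these shifts was not tested.

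A replicate block was also fitted (the lysate for polysome against input, the replicate number between genotypes). With it 58 members were called lower in cKO, and 32 lower and 5 higher in cHet. In the other comparisons 0 members were called. Over all 13610 genes the block called 2012 lower and 2467 higher in cKO, and 3583 lower and 3842 higher in cHet. The cHet total of 37 members in either direction is not above the share over all genes. On polysomes the block called 31 genes higher and 11 lower, against 0 without it. Same-numbered deviations of the genotypes correlated at −0.08, 0.17 and −0.28 on polysomes and −0.05, −0.09 and −0.04 in input. Those within lysates reached only 0.05 to 0.25, so such values cannot decide whether the numbers pair the genotypes.

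Signs turned for small, uncalled values, given here with the range over libraries left out. Rps27a on polysomes was −0.52 with quality weights (−0.18 to 0.70). Rpl22 in cKO was −0.10 with protein-coding scaling, −0.042 with quantile normalization and −0.12 with the length trend removed (−0.11 to 0.28). Rpl27 in cKO was −0.13 with the length trend removed, and Rpl34 in cKO −0.43 with named copies added. In the ratio difference, Rps10 was −0.19 with copies added (−0.21 to 0.76). Rpl5 was −0.022 with the length trend removed and −0.094 with quality weights (−0.024 to 0.14). Rpl7 was −0.11 with quality weights (−0.063 to 0.21). Groups of 3 libraries, unstated treatment of multi-mapped reads and FPKM that are relative within a library limit all values.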
